A study of Mus musculus with 2 samples.

Results

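Mitochondrial ribosomal proteins were examined in RNA-seq libraries of a metastatic and a primary neuroendocrine tumor, both propagated as patient-derived xenografts. The members were all genes whose symbols begin with MRPL or MRPS, pseudogenes left out. They came to 78 genes among 57011 distinct labels of the table. Of these, 49 are named for the large and 29 for the small subunit. The metastatic group held 1 library, from a metastatic gastroenteropancreatic neuroendocrine tumor grown in the peritoneal cavity. The primary group also held 1 library, from a primary tumor of that type grown in the flank. Both were carried in athymic nude mice of the Foxn1nu strain, which lack mature T cells and keep B cells and natural killer cells. No treatment was given to either. The ages of the mice are not in the labels, nor is it stated whether the tumors came from 1 patient, though the sample names share a stem. Graft site changed along with tumor origin, so effects of the 2 cannot be told apart.

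Mitochondria hold their own ribosome, which translates the few mRNAs of mitochondrial DNA into core subunits of the respiratory chain and of ATP synthase. Its ribosomal RNAs are made inside the organelle. All of its proteins are encoded in the nucleus, made in the cytosol and imported. Some have counterparts in bacteria and others are found in mitochondrial ribosomes alone. The large subunit joins amino acids and releases the new chain through an exit tunnel next to the inner membrane, and the small subunit binds and decodes the mRNA.

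Values were FPKM, fragments scaled by transcript length and by the mapped total, as deposited. A level in FPKM is already divided by transcript length, so levels can be set side by side between genes. With 1 library per group no difference had a replicate check, no test was possible and no p-value is given. Log2 ratios are log2((metastatic + 1)/(primary + 1)), where the added 1 FPKM shrinks the differences of low genes. A gene counted as at least 2-fold higher or lower when this log2 ratio reached 1 or -1. The FPKM column summed to 885319 in the metastatic and 784987 in the primary library. The table has no counts, so the read depth is unknown. Most neuroendocrine markers gave little support to the label. Of 7 looked up, 6 had a row of their own, and all of these but UCHL1 were low or at 0. CHGA, the chromogranin A gene, was listed at 0 FPKM in both, which may be a failed estimate and is not read as absent expression. SYP, encoding synaptophysin, stood at 1.96 FPKM in the metastatic and 1.63 FPKM in the primary tumor. INSM1, a neuroendocrine transcription factor, stood at 0.271 FPKM in the metastatic and 3.54 FPKM in the primary tumor. CHGB stood at 0.336 FPKM in the metastatic and 1.64 FPKM in the primary tumor, and NCAM1 at 0.236 FPKM and 0. UCHL1, a neuronal and neuroendocrine hydrolase, stood at 705 FPKM in the metastatic and 225 FPKM in the primary tumor. In bulk RNA, fewer cells of a type and less RNA per cell cannot be told apart. The 6 fibroblast markers summed to 159 FPKM in the metastatic and 516 FPKM in the primary library. Of the 5 expressed ones, COL1A1, COL1A2 and COL3A1 reached a log2 ratio of -1 or less and DCN one of 1 or more, while LUM was at 0 in the primary library. All 4 endothelial markers and both leukocyte markers with a row of their own, PTPRC and CD3E, were under 1 FPKM in both libraries. KDR and CD3E were listed at 0, with the same limit as CHGA. Stromal cells of the host would be mouse cells, while the table holds human gene symbols and the handling of mouse reads is not given. These marker values therefore do not measure how much stroma the tumors held. What stromal cells gave to the values of the members was not tested.

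Most mitochondrial ribosomal protein genes were higher in the metastatic tumor, and both subunits stood higher by similar amounts. Of the 78 members, 62 had a row of their own and at least 1 FPKM in a library. The other 16 were 13 that stood only in a locus merged with other genes and 3 listed at 0 in both libraries. Of the 62, 57 had a log2 ratio above 0 and 5 below. Among all 13811 expressed entries, 51.8% were above 0. At least 2-fold higher were 16 of the 62, or 25.8%, against 9.22% of all expressed entries. None of the 62 was at least 2-fold lower, against 9.35% of all expressed entries. The median log2 ratio was 0.73 over the 62 members and 0.03 over all expressed entries, and no member reached 4-fold. With both columns scaled to the same sum, 52 members were above 0, 10 were at least 2-fold higher, none was at least 2-fold lower, and the median was 0.56 beside -0.13 for all entries. Under that scaling 43% of all entries were above 0, 7.17% were higher by 2-fold or more and 12.6% were lower by that much.

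The large subunit members had a median log2 ratio of 0.74, with 38 of 40 above 0, 10 at least 2-fold higher and none at least 2-fold lower. The small subunit members had a median of 0.71, with 19 of 22 above 0, 6 at least 2-fold higher and none at least 2-fold lower. At least 2-fold higher were thus 25% of the large and 27.3% of the small subunit members, against 9.22% of all expressed entries. The medians differed by 0.02, and the interquartile range of the members ran from 0.36 to 1.01 in the large and from 0.39 to 1.01 in the small subunit. Summed over members, the large subunit genes stood at 4605 FPKM in the metastatic and 2729 FPKM in the primary tumor, a ratio of 1.69. The small subunit genes summed to 2039 FPKM in the metastatic and 1196 FPKM in the primary tumor, a ratio of 1.70. All 62 members together took 0.751% of the FPKM in the metastatic and 0.50% in the primary column. Members with a bacterial counterpart had a median of 0.73 over 34 genes, and the mitochondria-specific ones 0.65 over 27 genes. Of the counterparts 11 (32.4%) were at least 2-fold higher, and of the mitochondria-specific members 5 (18.5%), against 9.22% of all expressed entries.

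**Figure D1:**
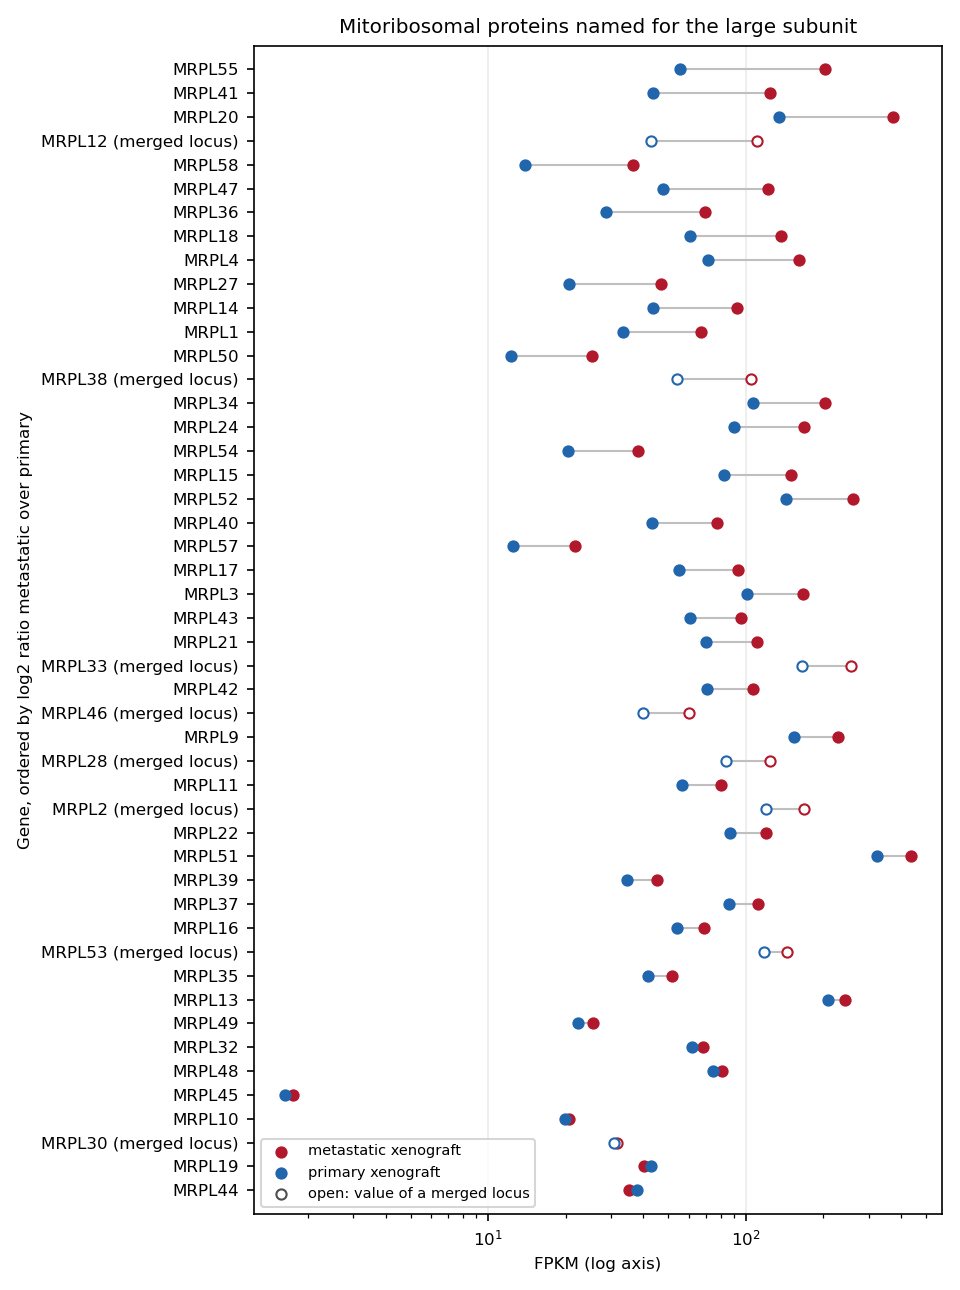
Levels of the 48 large subunit genes with a value above 0, in FPKM on a log axis, with 1 point for the metastatic and 1 for the primary xenograft. Genes run from the highest log2 ratio (top) to the lowest, and open points give a whole merged locus. MRPL19 and MRPL44 at the bottom are the genes with the primary tumor to the right. MRPL23, listed at 0 in both libraries, has no point.

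The member furthest higher was MRPL55, a small protein of the large subunit, at 203 FPKM in the metastatic and 55.5 FPKM in the primary tumor, a log2 ratio of 1.85. MRPL41, which is specific to mitochondria, stood at 124 FPKM in the metastatic and 43.6 FPKM in the primary tumor (1.48). MRPL20, whose bacterial counterpart binds ribosomal RNA early in assembly, stood at 374 FPKM in the metastatic and 135 FPKM in the primary tumor (1.46). These genes were more than 2-fold and less than 4-fold higher in the metastatic tumor, and MRPL20 was also the second most abundant member. Its antisense gene MRPL20-AS1 stood at 14.7 FPKM in the metastatic and 5.63 FPKM in the primary tumor. Strand use is not given in the sources used here, so reads of the pair may not be told apart. MRPL58, a peptidyl-tRNA hydrolase that became part of the large subunit, stood at 36.4 FPKM in the metastatic and 13.9 FPKM in the primary tumor (1.33).

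Proteins around the exit tunnel differed in extent, from level to more than 2-fold higher. MRPL47 stood at 122 FPKM in the metastatic and 47.9 FPKM in the primary tumor, a log2 ratio of 1.32. MRPL24 was at 168 FPKM in the metastatic and 89.7 FPKM in the primary tumor (0.90), and MRPL17 at 93.4 FPKM in the metastatic and 55.1 FPKM in the primary tumor (0.75). MRPL22 stood at 120 FPKM in the metastatic and 87.0 FPKM in the primary tumor (0.46). MRPL45, which ties the ribosome to the inner membrane, was far below the 61 other members with a row of their own and at least 1 FPKM, at 1.74 FPKM in the metastatic and 1.63 FPKM in the primary tumor. Its value is uncertain. The gene has 2 rows, of which 1 stood at 0.0623 FPKM in the metastatic library and at 0 in the primary library. A similar pseudogene, MRPL45P2, stood at 1.35 FPKM in the metastatic and 3.11 FPKM in the primary tumor. MRPL23, also of the tunnel, was listed at 0 in both libraries.

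The central protuberance is the crest of the large subunit that faces the small one. The fixed list of roles used here, which need not be complete, placed 5 members with their own row in it. All 5 were above 0, with a median log2 ratio of 0.85, though MRPL48 (0.11) turned below 0 with the columns scaled to the same sum. MRPL18 stood at 137 FPKM in the metastatic and 60.5 FPKM in the primary tumor (1.17). MRPL27 stood at 46.7 FPKM in the metastatic and 20.7 FPKM in the primary tumor (1.14). MRPL52, at 261 FPKM in the metastatic and 144 FPKM in the primary tumor, and MRPL40, at 77.0 FPKM in the metastatic and 43.4 FPKM in the primary tumor, were within 2-fold. MRPL48 differed little, at 80.8 FPKM in the metastatic and 74.7 FPKM in the primary tumor.

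Near the peptidyl transferase centre, where peptide bonds form, MRPL4 stood at 160 FPKM in the metastatic and 71.1 FPKM in the primary tumor, a log2 ratio of 1.16. MRPL3 stood at 167 FPKM in the metastatic and 101 FPKM in the primary tumor (0.73), and MRPL16 at 68.7 FPKM in the metastatic and 53.9 FPKM in the primary tumor (0.35). The stalk recruits translation factors. Of its base, MRPL11 stood at 79.9 FPKM in the metastatic and 56.4 FPKM in the primary tumor, and MRPL10 at 20.6 FPKM in the metastatic and 19.95 FPKM in the primary tumor. Both were within 2-fold, and the sign for MRPL10 (0.04) turned under each of the 4 other scalings. MRPL12, the stalk protein itself, was in a merged locus. The large subunit members below 0 were MRPL44 and MRPL19. MRPL44, whose fold is related to ribonucleases, stood at 35.3 FPKM in the metastatic and 37.9 FPKM in the primary tumor, and MRPL19 at 40.4 FPKM in the metastatic and 43.1 FPKM in the primary tumor. Their plain ratios were 0.93 and 0.94, close to equal levels.

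**Figure D2:**
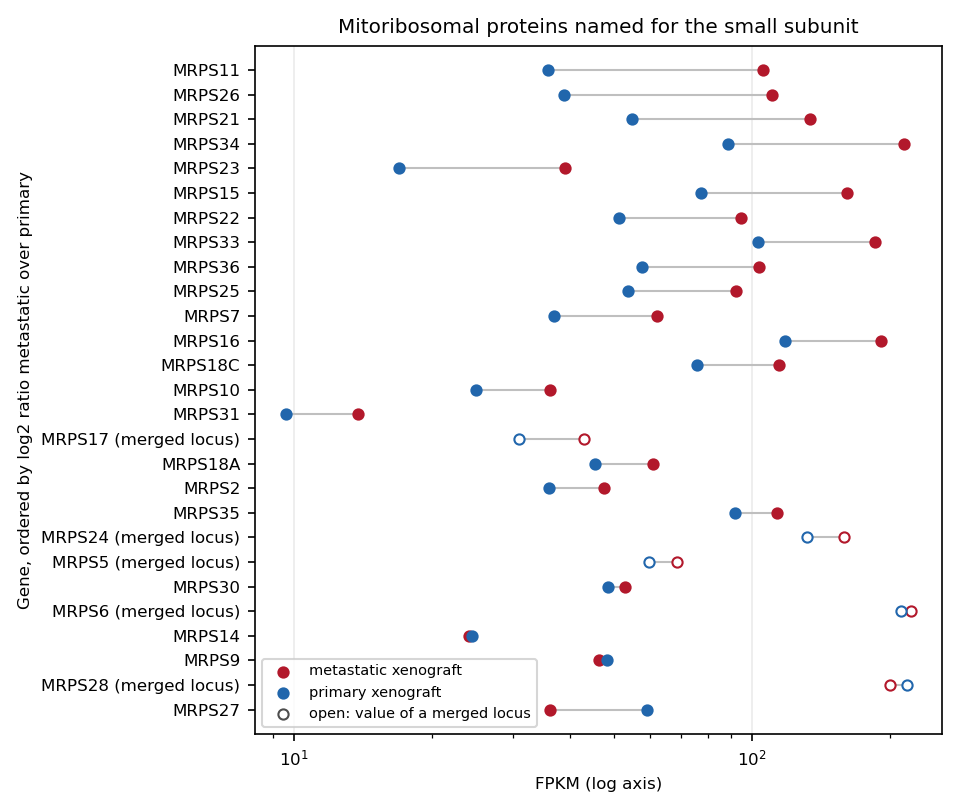
Levels of the 27 small subunit genes by symbol with a value above 0, in FPKM on a log axis, for the metastatic and the primary xenograft. Open points are whole merged loci. MRPS27 at the bottom is the gene with the widest gap in favor of the primary tumor, and MRPS12 and MRPS18B, listed at 0 in both libraries, have no points.

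Among small subunit members MRPS11, with a bacterial counterpart, was furthest higher, at 105 FPKM in the metastatic and 35.9 FPKM in the primary tumor, a log2 ratio of 1.53. MRPS26, specific to mitochondria, stood at 110 FPKM in the metastatic and 38.8 FPKM in the primary tumor (1.48). MRPS21 stood at 134 FPKM in the metastatic and 54.7 FPKM in the primary tumor (1.28). The other small subunit members at least 2-fold higher were MRPS34, MRPS23 and MRPS15. MRPS34, a mitochondria-specific protein needed for a stable small subunit, stood at 215 FPKM in the metastatic and 88.5 FPKM in the primary tumor (1.27). MRPS23 stood at 39.0 FPKM in the metastatic and 16.9 FPKM in the primary tumor, and MRPS15 at 161 FPKM in the metastatic and 77.3 FPKM in the primary tumor.

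MRPS27 had the lowest log2 ratio of all 62 members. This pentatricopeptide repeat protein stood at 36.2 FPKM in the metastatic and 59.0 FPKM in the primary tumor, a log2 ratio of -0.69. The other small subunit members below 0 were nearly level. MRPS9 stood at 46.2 FPKM in the metastatic and 48.2 FPKM in the primary tumor, and MRPS14 at 24.1 FPKM in the metastatic and 24.5 FPKM in the primary tumor. The list of roles placed 4 expressed members with their own row at the decoding site and along the mRNA path. They ran from -0.06 for MRPS9 to 1.53 for MRPS11. Between them, MRPS7 stood at 62.0 FPKM in the metastatic and 36.9 FPKM in the primary tumor (0.73). MRPS2 stood at 47.5 FPKM in the metastatic and 36.1 FPKM in the primary tumor (0.39). MRPS12, a protein of the decoding site, was listed at 0 in both libraries.

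Some symbols do not match the place of the protein. MRPS18A and MRPS30 sit in the large subunit. MRPS18A stood at 60.8 FPKM in the metastatic and 45.5 FPKM in the primary tumor (0.41), and MRPS30 at 52.7 FPKM in the metastatic and 48.5 FPKM in the primary tumor (0.12, and below 0 with the columns scaled to the same sum). MRPS36 is now assigned to the 2-oxoglutarate dehydrogenase complex, an enzyme of the citric acid cycle, and stood at 104 FPKM in the metastatic and 57.6 FPKM in the primary tumor (0.84). The gene has 2 rows, of which 1 was at 0 in both libraries, so its value is less certain. The rule for giving genes with values took out every member below 0, so the 24 members it left could only be above 0. As deposited they ran from 0.14 for MRPL32, which turned below 0 with the columns scaled to the same sum, to 1.27 for MRPS34. Of these, 5 were at least 2-fold higher: MRPS34, MRPS23 and MRPS15 above, with MRPL36 at 69.6 FPKM in the metastatic and 28.7 FPKM in the primary tumor and MRPL14 at 92.4 FPKM in the metastatic and 43.5 FPKM in the primary tumor. MRPL1, at 67.2 FPKM in the metastatic and 33.3 FPKM in the primary tumor, and MRPL50 had plain ratios of 2.01 and 2.06 but log2 ratios of 0.99 on the scale used, just short of 2-fold.

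The order of the members by level was much alike in both tumors, with a Spearman coefficient of 0.87 across 62 genes that share their libraries. The most abundant was MRPL51, specific to mitochondria, at 436 FPKM in the metastatic and 323 FPKM in the primary tumor. After MRPL20 came MRPL13, at 242 FPKM in the metastatic and 209 FPKM in the primary tumor, then MRPL52. MRPL9 stood at 228 FPKM in the metastatic and 154 FPKM in the primary tumor. At the low end after MRPL45 were MRPS31, at 13.8 FPKM in the metastatic and 9.62 FPKM in the primary tumor, and MRPL57, at 21.8 FPKM in the metastatic and 12.5 FPKM in the primary tumor. MRPL50 stood at 25.2 FPKM in the metastatic and 12.2 FPKM in the primary tumor, followed by MRPL10. Without MRPL45, mRNA levels ran from 13.8 to 436 FPKM in the metastatic and from 9.62 to 323 FPKM in the primary tumor, although these proteins are built into the ribosome in equal numbers with few exceptions.

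MRPL23, MRPS12 and MRPS18B were listed at 0 in both libraries, and each had several rows, with 2, 2 and 7 of them. Of 1842 labels with several rows, clone names and short RNAs aside, 82.5% were at 0 in both libraries, against 32.2% of 23959 labels with 1 row. A 0 may thus be a failed estimate and is not read as absent expression. Of 70 labels of MRPL or MRPS pseudogenes, 69 were under 1 FPKM in both libraries.

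The 13 members of merged loci cannot be separated from their neighbors, and their values are those of the whole locus. Of these loci 12 were above 0, 1 was at least 2-fold higher and none was at least 2-fold lower, with a median log2 ratio of 0.46. The locus of MRPL12 and the mitochondrial carrier SLC25A10 stood at 111 FPKM in the metastatic and 42.9 FPKM in the primary tumor (1.35). The locus of MRPL38 and FBF1 stood at 104 FPKM in the metastatic and 54.2 FPKM in the primary tumor (0.93). These were the merged loci furthest higher. MRPL33 with BABAM2 had a log2 ratio of 0.62, MRPL46 with DET1 0.59, MRPL28 with TMEM8A 0.55, MRPL2 with CUL7 0.49 and MRPS17 with NIPSNAP2 and ZNF713 0.46. MRPL53 with CCDC142 had 0.30, MRPS24 with URGCP 0.26, MRPS5 with ZNF514 0.20, MRPS6 with SLC5A3 0.07 and MRPL30 with LIPT1 and C2orf15 0.04. The locus of MRPS28 and TPD52 was the one below 0, at 200 FPKM in the metastatic and 218 FPKM in the primary tumor.

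Short transcripts ran higher in the metastatic library across the table. In 8 equal bins of transcript length, the median log2 ratio of other genes went down with length, with 0.38 in the shortest bin and -0.25 in the longest. Lengths were those of the longest coding transcript of the mouse gene of the same symbol. They were found for 62 of 62 members and for 86.3% of 10825 expressed single genes not named as a clone, short RNA, antisense RNA or pseudogene. Of the 62 members, 32 fell in the shortest bin, from 282 to 1453 nt. In that bin the members had a median log2 ratio of 0.88 and the 1136 other genes 0.38. The members' median exceeded that of the other genes in all 8 bins, although the 6 longest bins held 1 to 6 members each, and 53 of 62 members lay above the median of their bin. Across members, log2 length and log2 ratio had a Spearman coefficient of -0.37, a description of genes from the same pair of libraries.

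Level was compared in the same way. The 3440 other entries between the 10th and 90th percentile of the members' mean FPKM, from 24.4 to 154 FPKM, had a median log2 ratio of 0.18. Of the 2135 other genes between the 10th and 90th percentile of the members in both length and mean FPKM, 11.2% were at least 2-fold higher and 65.3% were above 0, with a median of 0.25. Of the 36 members inside both ranges, 33.3% were at least 2-fold higher and 91.7% were above 0, with a median of 0.73. At least 2-fold lower were 4.78% of these other genes and none of the 36 members. The length range was wide, from 703 to 4143 nt, and members and other genes were not matched for length within it. This comparison therefore does not remove the trend with length. With the trend with length removed from all genes, 10 of 62 members were at least 2-fold higher, none was at least 2-fold lower, and the median was 0.45 beside 0.03 for all 9337 genes with a length. Of those genes, 6.33% reached a log2 ratio of 1 and 8.2% one of -1.

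**Figure D3:**
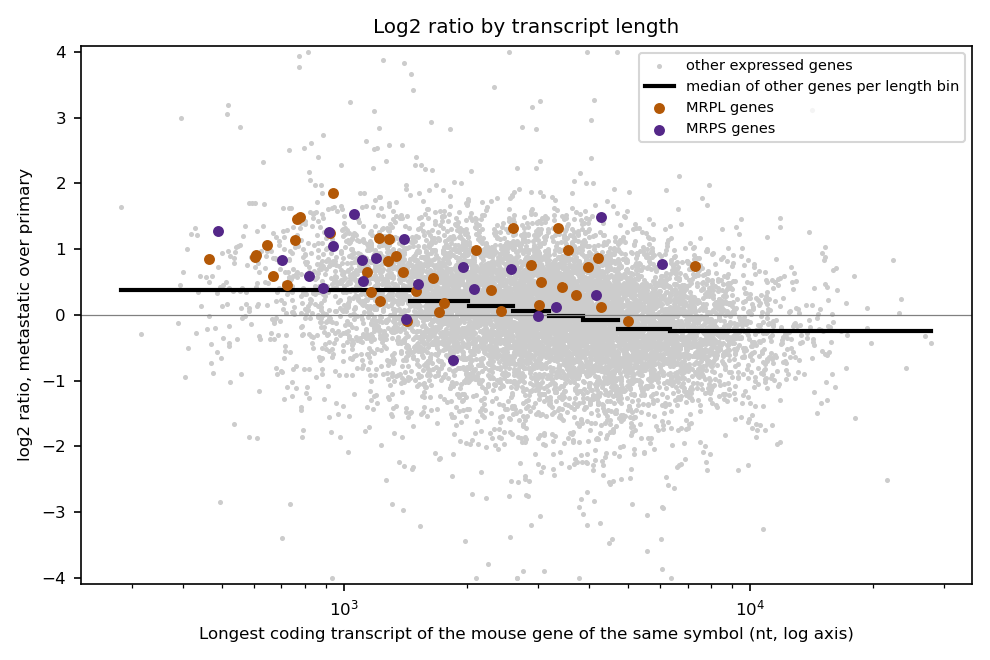
Log2 ratio of metastatic over primary (FPKM + 1) against transcript length in nt on a log axis. Grey points are other expressed genes (10 beyond 4 log2 units are drawn at the limit), black bars the median of the other genes in each of 8 length bins, and colored points the MRPL and MRPS genes. The bars go down with length, and 53 of 62 colored points lie above the bar of their bin.

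Genes that work with this ribosome were compared with it, first the 5 subunits that carry no MRP symbol. GADD45GIP1, of the large subunit, stood at 232 FPKM in the metastatic and 93.2 FPKM in the primary tumor, a log2 ratio of 1.31. Of the small subunit proteins, AURKAIP1 stood at 292 FPKM in the metastatic and 133 FPKM in the primary tumor (1.13). CHCHD1 stood at 94.3 FPKM in the metastatic and 50.4 FPKM in the primary tumor (0.89), and the GTP-binding protein DAP3 at 271 FPKM in the metastatic and 177 FPKM in the primary tumor (0.61). PTCD3 went the other way, at 36.9 FPKM in the metastatic and 61.4 FPKM in the primary tumor (-0.72). It is a pentatricopeptide repeat protein like MRPS27 and had nearly the same levels.

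Factors that assemble this ribosome or process its RNA had a median log2 ratio of 0.57 over 21 expressed genes. Of these 16 (76.2%) were above 0, 4 (19%) were at least 2-fold higher and none was at least 2-fold lower. Among all expressed entries these shares were 51.8%, 9.22% and 9.35%. The assembly factor MPV17L2 stood at 12.5 FPKM in the metastatic and 3.26 FPKM in the primary tumor (1.66), and the pseudouridine synthase-like PUSL1 at 16.6 FPKM in the metastatic and 5.20 FPKM in the primary tumor. MTERF3, of the mitochondrial termination factor family, stood at 30.1 FPKM in the metastatic and 13.5 FPKM in the primary tumor, and the GTPase MTG2 at 45.1 FPKM in the metastatic and 21.6 FPKM in the primary tumor. These were the 4 past 2-fold.

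Translation factors of mitochondria had a median of 0.32 over 11 genes (0.15 with the columns scaled to the same sum). Of these 8 (72.7%) were above 0, against 51.8% of all expressed entries. At least 2-fold higher was 1 (9.09%), near the 9.22% of all expressed entries, and none was at least 2-fold lower, against 9.35%. TACO1, an activator of translation of a cytochrome oxidase subunit, stood at 13.9 FPKM in the metastatic and 6.08 FPKM in the primary tumor. The elongation factor TUFM stood at 478 FPKM in the metastatic and 241 FPKM in the primary tumor (0.99). The recycling factor MRRF and the elongation factor GFM1 were also above 0, at 0.80 and 0.74.

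Factors of mitochondrial transcription and mRNA stability had a median of 0.34 over 9 genes (0.17 with the columns scaled to the same sum). Of these 7 (77.8%) were above 0, 2 (22.2%) were at least 2-fold higher and none was at least 2-fold lower. Among all expressed entries these shares were 51.8%, 9.22% and 9.35%. The RNA polymerase POLRMT stood at 56.2 FPKM in the metastatic and 25.3 FPKM in the primary tumor, and the helicase SUPV3L1 at 73.6 FPKM in the metastatic and 33.3 FPKM in the primary tumor. TFB2M and TEFM, which assist that polymerase, had log2 ratios of 0.85 and 0.75.

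Of the 13 genes of mitochondrial DNA whose proteins this ribosome makes, most could not be read. The locus that merges MT-CO1, MT-CO2, MT-CO3, MT-ATP6, MT-ATP8, MT-ND3, MT-ND4, MT-ND4L and MT-ND5 was listed at 0 in both libraries. MT-CYB, encoding cytochrome b, stood at 6279 FPKM in the metastatic and 2732 FPKM in the primary tumor. The locus of MT-ND1 and MT-ND2 stood at 21753 FPKM in the metastatic and 18204 FPKM in the primary tumor. MT-ND6 stood lower, at 75.4 FPKM in the metastatic and 102 FPKM in the primary tumor. The 2 mitochondrial ribosomal RNAs were looked up and matched no label, so no value is given for them.

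Nuclear subunits of oxidative phosphorylation, most of whose complexes take up the products of this ribosome, had a median log2 ratio of 0.65 over 57 genes. Of these 55 (96.5%) were above 0, 17 (29.8%) were at least 2-fold higher and none was at least 2-fold lower. Among all expressed entries these shares were 51.8%, 9.22% and 9.35%. NDUFB10 of complex I stood at 262 FPKM in the metastatic and 84.0 FPKM in the primary tumor. Proteins of the cytosolic ribosome stood near the median of all entries. They had a median of 0.02 over 64 genes (-0.16 with the columns scaled to the same sum), with 33 above 0, none at least 2-fold higher and none at least 2-fold lower. Where a length was found, the median was 906 nt for these genes and 863 nt for the nuclear subunits of oxidative phosphorylation. What length gave to either list was not tested. The difference between the lists could not be tested with 1 library per group.

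**Figure D4:**
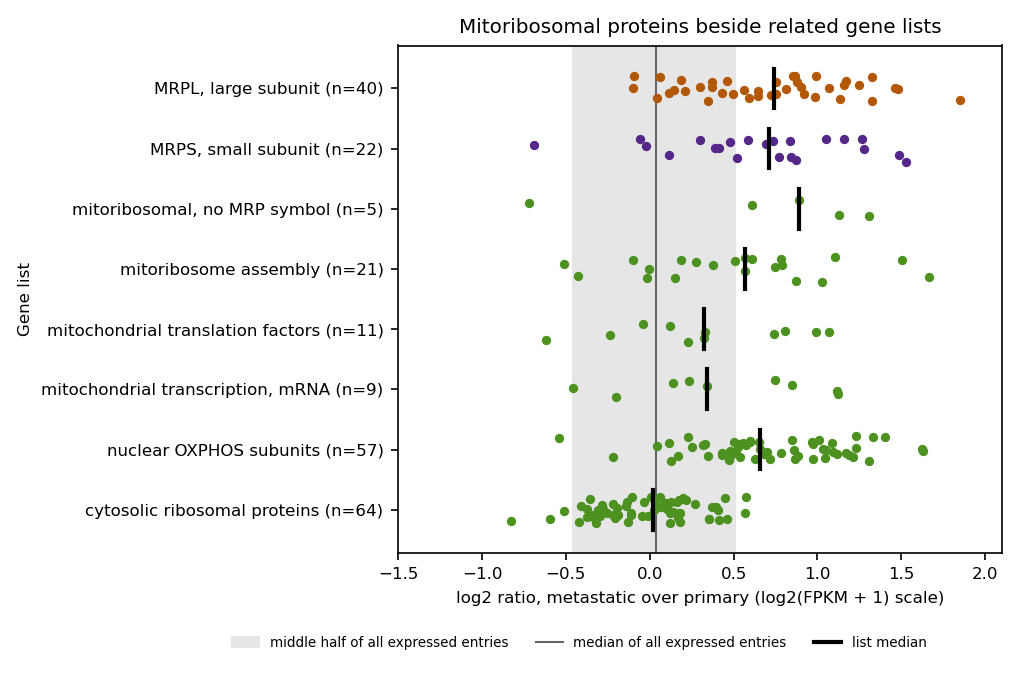
Log2 ratio, metastatic over primary with 1 FPKM added to each, for each expressed gene of 8 lists, with points spread vertically for legibility. Black bars are list medians, the grey band the interquartile range of all 13811 expressed entries and the grey line their median of 0.03. The medians of MRPL (0.74), MRPS (0.71) and nuclear OXPHOS genes (0.65) lie to the right of the band. So do those of mitoribosomal genes without an MRP symbol (0.89) and of assembly factors (0.57). Those of translation factors (0.32) and of transcription and mRNA factors (0.34) lie inside it. That of cytosolic ribosomal proteins (0.02) lies at the line.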

How the data were processed

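RNA-seq of 2 libraries, 1 per group, was analysed from 1 table of 62573 rows. The values are FPKM computed by the authors. Per the submitters' processing notes, bcl2fastq 2.18.0.12, STAR 2.7.6a, Cufflinks 2.2.1 and GRCh38 were used, with no role or order. The labels give mouse as organism. Not given in the sources used here are the annotation, the handling of mouse reads, strand use and the fragment total behind each column. Per the labels' protocols, tumors were dissociated with a mouse tumor kit before RNA extraction.

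Rows of 1 label were summed, and 1734 rows name several symbols. A member inside such a label was reported as a merged locus and left out of counts and medians. Entries of at least 1 FPKM in a library were kept. The pseudocount was 1 FPKM, with no rescaling. Calls were 2-fold differences, with no test. Calculations used Python 3.11.15, pandas 2.3.3, SciPy 1.17.1 and statsmodels 0.14.6 and were tested on simulated data. Members and lists were chosen with earlier results of these data known. Genes given with values were the 8 members with the largest positive and the 5 with a negative log2 ratio (up to 8 were allowed), the 5 most and 5 least abundant, those at 0, merged loci, members of fixed structural roles, and up to 4 genes of each related list. MRPL36, MRPL14, MRPS34, MRPS23, MRPS15, MRPL32, MRPL1 and DAP3 were added after their values were seen. Length came from GENCODE mouse transcripts, since human transcripts were not used here.

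Alternatives were other pseudocounts, filters, scalings and folds, the highest row per label, treatment of merged loci, subunits by structure, and removal of the length trend. Removal of the GC trend and of MRPL45 was chosen after seeing the data.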

Additional observations from a re-analysis of the deposited data

How the results depend on the processing

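No paired analysis was possible because each group held 1 library. Over the alternatives run, the median log2 ratio ranged from 0.45 to 0.74 for all members, from 0.45 to 0.75 for the large and from 0.45 to 0.73 for the small subunit, and no median changed sign. The large minus small difference ranged from -0.05 with subunits by structure to 0.13 with merged loci included. With the length trend removed, the median was 0.45 over all members and 0.45 over the large subunit. At least 2-fold higher were then 10 members (16.1%), against 6.33% of all genes with a length. These values come from subtracting a trend that put short transcripts higher. At a 1.5-fold threshold 37 members were higher and 1 lower, against 21.8% and 20% of all entries. At 4-fold, 0 members were higher and 0 lower, against 1.19% and 1.88% of all entries. Scaling to the same sum left 10 members (16.1%) at least 2-fold higher, against 7.17% of all entries. It moved the median of all entries by over 0.1, to -0.13 (-0.12 without short and mitochondrial genes), and of all entries past 2-fold 1029 were higher and 1813 lower in place of 1273 higher and 1291 lower. Relative to all entries, the members' median was 0.69 higher as deposited and 0.69 under each of the 4 scalings. Each scaling multiplies a whole column by 1 factor and shifts all log2 ratios nearly alike. This difference could therefore hardly change, and its constancy is not a check of the result. Scaling to the same sum, with or without short and mitochondrial genes, turned MRPL10, MRPL32, MRPL45, MRPL48 and MRPS30 below 0, and the other 2 scalings turned MRPL10. With every merged locus included, the median was 0.62 over 75 members. No replicate or depth was at hand to set an error on any single gene.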

Other observations

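The mitoribosomal genes furthest lower in the metastatic tumor both encode pentatricopeptide repeat proteins of the small subunit, MRPS27 and PTCD3. Other genes of mitochondrial RNA-binding repeat proteins with a row of their own were looked up after these values were seen. PTCD2, which acts on cytochrome b mRNA in mice, stood at 3.05 FPKM in the metastatic and 6.65 FPKM in the primary tumor, a log2 ratio of -0.92. LRPPRC, which stabilizes mitochondrial mRNAs, went the other way, at 202 FPKM in the metastatic and 159 FPKM in the primary tumor (0.34). POLRMT, which also holds such a repeat domain, was higher as well (1.12). Among the FASTK family of mitochondrial RNA-binding proteins, TBRG4 had a log2 ratio of 0.55 and FASTKD1 of 0.40, beside -0.10 for FASTKD2 and -0.27 for FASTKD3.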
